A study of Homo sapiens with 8 samples.

Results

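UCA1, MANCR, CADM3-AS1, VPS9D1-AS1, HOXC-AS1, CARD8-AS1, MALAT1 and NEAT1 are 8 long noncoding RNAs, followed here in HMLE cells, a line grown from human breast epithelium that was immortalized. Each was found in the deposited table by its RefSeq name, as 1 of 48175 transcripts, and each had 1 transcript there. They were picked with their levels in these libraries known, so their levels and fold changes are given as a description with no p-value, and where limma calls them this is stated only beside the share called of all genes. The table gives FPKM, that is, fragments scaled to the length of the transcript and the size of the library, for 8 libraries in 4 groups of 2: cells with 1 shRNA against SOX4 given TGF-β for 16 h, the same cells untreated, cells with a scrambled shRNA given TGF-β for 16 h, and the same cells untreated. SOX4 is a transcription factor of the SoxC family, and TGF-β is a cytokine that brings on epithelial-mesenchymal transition in such cells. All groups carried a lentiviral shRNA and were selected with puromycin at 0.5 µg/mL. A single shRNA stands for the knockdown, and nothing states whether the 2 libraries of a group are separate cultures, so SDs and p-values cover the spread between these libraries alone, which may be technical. The labels' protocols name a stranded kit that depletes ribosomal RNA, but the molecule is labelled polyA RNA, and which fraction was sequenced is not settled.

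Long noncoding RNAs are transcripts with no known protein product. Some stay in the nucleus: MALAT1 gathers in nuclear speckles, where splicing factors are stored, and NEAT1 is the scaffold of paraspeckles. UCA1 was first described in urothelial carcinoma and is abundant in several carcinomas, and MANCR, the mitotically associated long noncoding RNA, was described in breast cancer cells. The names ending in AS1 mark transcripts read from the strand opposite to a protein-coding gene, here CADM3, VPS9D1 and CARD8, or from the opposite strand of the HOXC cluster of developmental transcription factors.

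All 8 RNAs were among the 5322 genes fitted, which had at least 1 FPKM in at least 2 libraries. HOXC-AS1 passed that filter only through the untreated scrambled-shRNA libraries, where it is highest. The factors recovered from the values stand for 12.6 M to 16.8 M reads per library, and the fitted genes held 4.52 M to 6.05 M of them. Decimal marks had been lost from 34.1% of the deposited cells, and each value below is the reading that gives whole reads and has the highest probability given the other libraries. Replicates differed more in SOX4-shRNA cells, with a chi-square per gene of 26 with TGF-β and 22.7 untreated, than in scrambled-shRNA cells, with 4.50 and 12. The epithelial markers KRT5 (2886 to 3945 FPKM), KRT14 (1446 to 2875 FPKM), EPCAM (55.8 to 114 FPKM) and CDH1 (74.1 to 95.4 FPKM) were present in every library, while the readings of KRT8, KRT18 and TP63 were not settled. The fibroblast markers LUM and PDGFRA reached at most 0.105 FPKM, COL3A1 0.884 to 4.11 FPKM, and the intact cells of DCN at most 0.99 FPKM. PTPRC (leukocytes) reached at most 0.0167 FPKM, PECAM1 at most 0.168 FPKM, and CDH5 (endothelium) was at 0. SOX4 had 2.37 and 1.88 FPKM in SOX4-shRNA cells with TGF-β and 0.923 and 1.02 FPKM untreated, against 18.7 and 17.6 FPKM in scrambled-shRNA cells with TGF-β and 8.74 and 8.04 FPKM untreated. Its fall on knockdown was a log2 fold change of -2.62 ± 0.13 (SE; limma adjusted p = 5.5e-05) with TGF-β and of -2.25 ± 0.13 (limma adjusted p = 0.00012) untreated. All fold changes here are on the log2(FPKM + 1) scale, which understates changes and spreads of low RNAs. A gene is called at a limma adjusted p under 0.05. The SE of a fold change is limma's moderated SE. It pools the libraries of all 4 groups and is drawn toward the trend over all fitted genes. A gene thus has the same SE in every comparison of 2 groups, whatever the spread of the libraries compared.

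UCA1 was higher with TGF-β in both kinds of cell. The gene spans chromosome 19 from 15939016 to 15947138 on the plus strand (GRCh37), and exons of LINC01764 overlap it on the opposite strand. It had 38.0 and 41.8 FPKM in SOX4-shRNA cells with TGF-β, against 8.28 and 8.0 FPKM in untreated SOX4-shRNA cells. In scrambled-shRNA cells it had 30.7 and 27.6 FPKM with TGF-β, against 11.3 and 10.4 FPKM untreated. No groups overlapped, and the order from high to low was SOX4-shRNA with TGF-β, scrambled with TGF-β, scrambled untreated, SOX4-shRNA untreated. The log2 fold change with TGF-β was 2.16 ± 0.11 (SE) in SOX4-shRNA cells and 1.35 ± 0.11 in scrambled-shRNA cells, a difference of 0.81 ± 0.16. Set against scrambled-shRNA cells, SOX4-shRNA cells were higher by 0.44 ± 0.11 with TGF-β and lower by a log2 fold change of -0.37 ± 0.11 when untreated. Between 243 and 1340 reads lay behind each value. The reading used held 0.986 of the probability, and the next, at 0.011, would put SOX4-shRNA replicate 2 with TGF-β 10 times lower. The log2 fold change with the SOX4 shRNA would then be -1.08 in TGF-β-treated cells. That with TGF-β would be 0.64 in SOX4-shRNA cells, and the difference -0.71.

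MANCR was higher with TGF-β and lower with the SOX4 shRNA. It lies on chromosome 10 from 4623487 to 4720408 on the minus strand (GRCh37), and LINC00705 has exons overlapping it on the other strand. It had 11.3 and 14.0 FPKM in SOX4-shRNA cells with TGF-β and 2.35 and 2.81 FPKM in untreated SOX4-shRNA cells. Scrambled-shRNA cells had 21.4 and 20.5 FPKM with TGF-β and 9.90 and 12.2 FPKM untreated. The untreated SOX4-shRNA libraries were thus the lowest and the TGF-β-treated scrambled ones the highest, while SOX4-shRNA cells with TGF-β overlapped untreated scrambled-shRNA cells. The log2 fold change with TGF-β was 1.93 ± 0.15 (SE) in SOX4-shRNA and 0.87 ± 0.15 in scrambled-shRNA cells, a difference of 1.06 ± 0.21. With the SOX4 shRNA it was -0.69 ± 0.15 in TGF-β-treated and -1.75 ± 0.15 in untreated cells. With 0.1 FPKM added in place of 1 these became -0.73 and -2.05. The untreated SOX4-shRNA values rest on 39 and 52 reads. The reading used held 0.976 of the probability, and at the next one, which held 0.0137, both of those libraries would be 10 times higher and the fold changes would be -0.97 for TGF-β in SOX4-shRNA cells and 1.16 for the shRNA in untreated cells.

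CADM3-AS1 separated the cells by shRNA and much less by TGF-β. It had 1.37 and 1.28 FPKM in SOX4-shRNA cells with TGF-β and 1.02 and 0.98 FPKM untreated, against 7.33 and 7.68 FPKM in scrambled-shRNA cells with TGF-β and 6.69 and 6.71 FPKM untreated. The highest of the 4 SOX4-shRNA libraries was thus below the lowest of the 4 scrambled ones. The log2 fold change with the SOX4 shRNA was -1.87 ± 0.11 (SE) in TGF-β-treated and -1.94 ± 0.11 in untreated cells. With 0.1 FPKM added in place of 1 it was -2.42 and -2.63. With TGF-β it was 0.21 ± 0.11 in SOX4-shRNA and 0.14 ± 0.11 in scrambled-shRNA cells, and in both kinds of cell the treated libraries lay above the untreated ones. The spread between libraries of a group was small, with a residual SD of 0.03 on the log2 scale, against a median of 0.15 over the fitted genes. Between 44 and 347 reads lay behind each value. The reading used held 0.996 of the probability, and at the next one, which held 0.0026, SOX4-shRNA cells with TGF-β would be 10 times higher and the fold change with the shRNA would be 0.74 there. The gene lies on chromosome 1 from 159164115 to 159177763 on the minus strand (GRCh37). Its exons overlap those of CADM3, a cell adhesion molecule, and the chemokine-binding receptor gene ACKR1 lies within its span, both on the other strand. Whether reads were counted by strand is not given in the sources used here, so reads of overlapping genes on opposite strands cannot be told apart.

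VPS9D1-AS1 was lower with TGF-β in both kinds of cell. It had 7.98 and 10.4 FPKM in SOX4-shRNA cells with TGF-β, against 18.9 and 14.2 FPKM in untreated SOX4-shRNA cells. Scrambled-shRNA cells had 6.51 and 7.60 FPKM with TGF-β, against 16.9 and 14.0 FPKM untreated. Every treated library lay below every untreated one. The log2 fold change with TGF-β was -0.78 ± 0.18 (SE) in SOX4-shRNA and -1.03 ± 0.18 in scrambled-shRNA cells. Between the shRNAs, SOX4 over scrambled, it was 0.33 ± 0.18 in TGF-β-treated cells, whose libraries did not overlap, and 0.09 ± 0.18 in untreated cells, whose libraries did. Between 150 and 439 reads lay behind each value. The gene lies on chromosome 16 from 89778264 to 89784573 on the plus strand (GRCh37), with exons overlapping those of VPS9D1 on the other strand. VPS9D1, which encodes a protein with a VPS9 domain, averaged 2.06 ± 0.453 FPKM in SOX4-shRNA cells with TGF-β and 2.09 ± 0.635 FPKM untreated, against 2.32 ± 0.479 and 2.65 ± 0.584 FPKM in scrambled-shRNA cells (SD, n = 2 each). Its log2 fold change with TGF-β was -0.01 ± 0.20 in SOX4-shRNA (limma adjusted p = 0.99) and -0.14 ± 0.20 in scrambled-shRNA cells (limma adjusted p = 0.72).

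**Figure D1:**
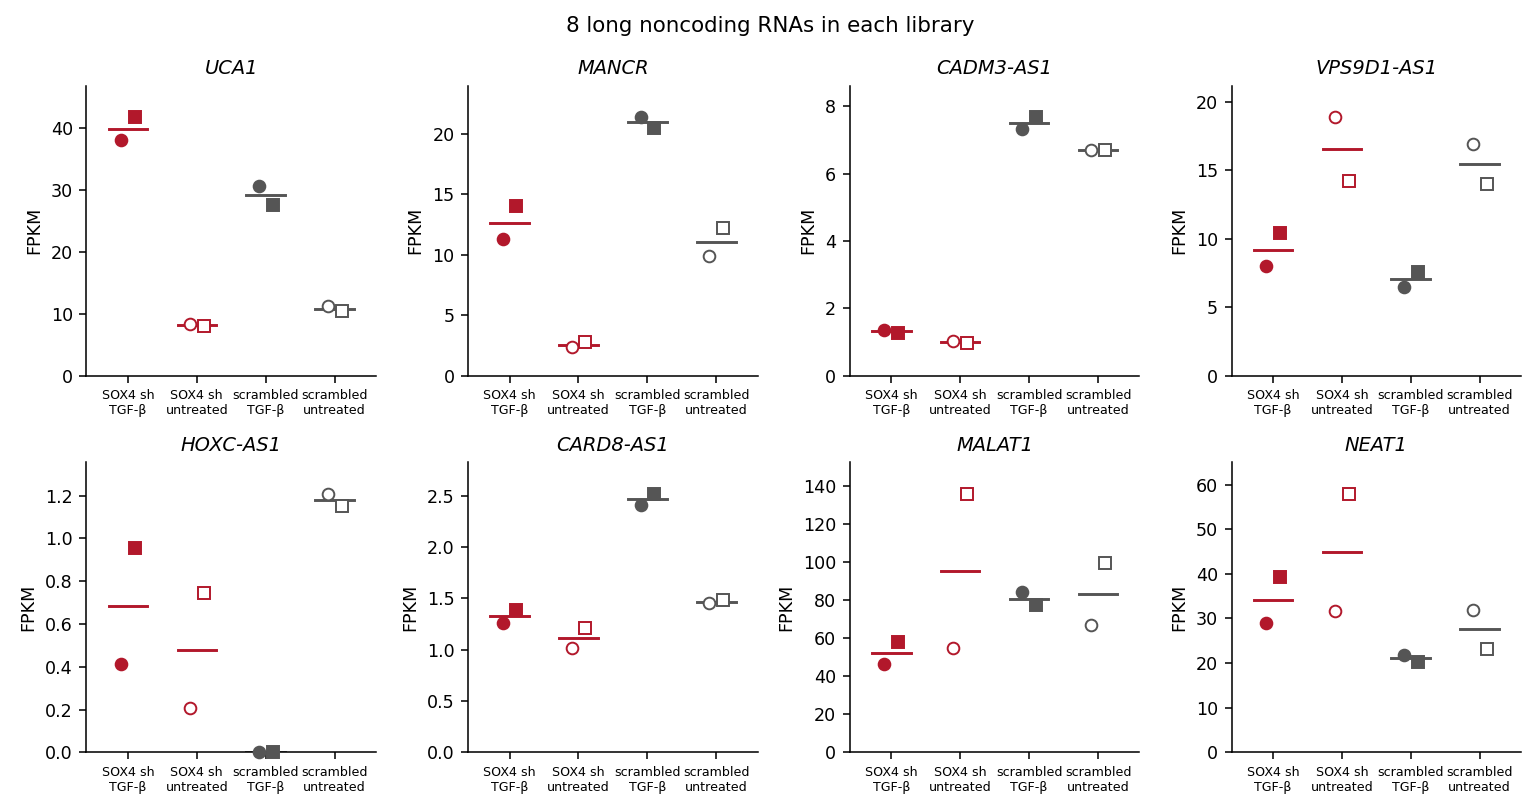
FPKM (vertical axes, from 0 and different in each panel) of the 8 RNAs in each library. Red is SOX4 shRNA and grey scrambled shRNA, filled points are TGF-β-treated and open points untreated, circles are replicate 1 and squares replicate 2, and lines are group means (n = 2). UCA1 lies above 27 FPKM in the 4 treated libraries and below 12 FPKM in the untreated ones, and CADM3-AS1 lies below 1.4 FPKM in the 4 SOX4-shRNA libraries.

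The promoters of MANCR, CADM3-AS1 and VPS9D1-AS1 are shown because these 3 RNAs are the clearest cases of a difference with both, with the shRNA and with TGF-β among the 5 members that have an entry in the RefSeq promoter table. UCA1, HOXC-AS1 and NEAT1 have none there. The sequences run from 250 bases before to 50 after the start, at chr10:4678021-4678320 on the minus strand for MANCR, chr1:159202373-159202672 on the minus strand for CADM3-AS1 and chr16:89711606-89711905 on the plus strand for VPS9D1-AS1 (GRCh38.p14). Capitals mark matches, on either strand, to CAGAC (bound by SMAD proteins), TGANTCA (AP-1), ACAAAG (SOX), GGAATG (TEAD) and CACCTG (SNAI and ZEB). No marked matches overlap.
MANCR: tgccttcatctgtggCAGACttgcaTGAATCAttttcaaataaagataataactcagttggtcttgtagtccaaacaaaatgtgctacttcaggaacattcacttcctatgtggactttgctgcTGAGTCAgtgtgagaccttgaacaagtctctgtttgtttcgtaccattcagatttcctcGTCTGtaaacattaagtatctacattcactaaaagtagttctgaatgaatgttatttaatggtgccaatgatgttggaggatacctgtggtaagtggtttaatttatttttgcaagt
CADM3-AS1: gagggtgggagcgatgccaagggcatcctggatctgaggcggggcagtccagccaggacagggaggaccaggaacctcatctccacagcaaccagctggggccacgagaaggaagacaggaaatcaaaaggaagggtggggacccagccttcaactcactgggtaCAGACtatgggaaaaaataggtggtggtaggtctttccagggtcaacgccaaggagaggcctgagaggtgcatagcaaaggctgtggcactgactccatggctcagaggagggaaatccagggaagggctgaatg
VPS9D1-AS1: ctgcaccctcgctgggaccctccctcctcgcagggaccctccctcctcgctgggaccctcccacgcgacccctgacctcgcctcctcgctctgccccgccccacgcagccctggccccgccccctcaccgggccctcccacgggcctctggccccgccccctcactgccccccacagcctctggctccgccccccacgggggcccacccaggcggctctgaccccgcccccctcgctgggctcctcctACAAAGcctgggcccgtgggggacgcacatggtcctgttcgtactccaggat
The MANCR window holds 2 matches to TGANTCA, starting at -225 and -126 from the start, and 2 to CAGAC, at -235 and -67. Of 35116 RefSeq promoters of this length, 7.71% hold TGANTCA and 45.3% hold CAGAC. The CADM3-AS1 window holds 1 CAGAC match at -85, and ACAAAG, held by 16.1% of promoters, is not in these letters. The VPS9D1-AS1 window holds 1 ACAAAG match that begins at -2 and so lies across the start. CARD8-AS1 and both MALAT1 windows also hold 1 ACAAAG match each. GGAATG, in 14.0% of promoters, and CACCTG, in 20.6%, are in none of the windows of the 5 members. A match is a description of letters and does not show binding.

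CARD8-AS1 was highest in scrambled-shRNA cells with TGF-β. It had 1.26 and 1.39 FPKM in SOX4-shRNA cells with TGF-β and 1.02 and 1.21 FPKM untreated, against 2.41 and 2.52 FPKM in scrambled-shRNA cells with TGF-β and 1.45 and 1.48 FPKM untreated. No groups overlapped. The log2 fold change with the SOX4 shRNA was -0.58 ± 0.12 (SE) in TGF-β-treated and -0.23 ± 0.12 in untreated cells. With TGF-β it was 0.14 ± 0.12 in SOX4-shRNA and 0.49 ± 0.12 in scrambled-shRNA cells. These are small numbers of reads, 25 to 63 per library. The gene lies on chromosome 19 from 48758932 to 48761456 on the plus strand (GRCh37), and its exons overlap those of CARD8, an inflammasome sensor, on the other strand. CARD8 itself was not tested, since its reading was not settled.

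HOXC-AS1 rests on very few reads. It had 2 and 5 reads in SOX4-shRNA cells with TGF-β and 1 and 4 untreated, against 0 and 0 in scrambled-shRNA cells with TGF-β and 7 and 5 untreated. As FPKM these are 0.414 and 0.954 with TGF-β and 0.208 and 0.746 untreated in SOX4-shRNA cells, and 0 and 0 with TGF-β and 1.21 and 1.15 untreated in scrambled-shRNA cells. Summed over the libraries of a group, the reads with their exact 95% Poisson intervals were 7 (2.81 to 14.4) in treated and 5 (1.62 to 11.7) in untreated SOX4-shRNA cells. They were 0 (0 to 3.69) in treated and 12 (6.2 to 21.0) in untreated scrambled-shRNA cells. These intervals cover counting error only. The intervals of treated and untreated scrambled-shRNA cells do not overlap, while those of SOX4-shRNA and scrambled-shRNA cells with TGF-β do. HOXC-AS1 was picked with these levels known and passed the filter only through the untreated scrambled-shRNA libraries. Nothing is therefore read from the intervals that do not overlap. No fold is read from the group at 0, since the pseudocount sets it. In SOX4-shRNA cells the treated and untreated libraries overlapped. The gene lies on chromosome 12 from 54392806 to 54393794 on the minus strand (GRCh37), within the span of HOXC9 and HOXC6 on the other strand, with no shared exon. HOXC9, a homeobox gene, averaged 7.71 ± 0.317 FPKM in SOX4-shRNA cells with TGF-β and 6.02 ± 0.609 FPKM untreated, against 5.53 ± 0.790 and 6.08 ± 0.401 FPKM in scrambled-shRNA cells (SD, n = 2 each). Its log2 fold change with TGF-β was -0.12 ± 0.13 in scrambled-shRNA cells (limma adjusted p = 0.63), and that with the SOX4 shRNA was 0.42 ± 0.13 in TGF-β-treated cells (limma adjusted p = 0.15).

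MALAT1 and NEAT1, the nuclear pair, had the largest residual SDs of the 8 on the log2(FPKM + 1) scale. Their geometric mean levels over the 8 libraries were also the highest. They lie close together on the plus strand of chromosome 11 (GRCh37), NEAT1 from 65190245 to 65213011 and MALAT1 from 65265111 to 65275544, where exons of TALAM1 overlap MALAT1 on the other strand. MALAT1 had 46.6 and 57.8 FPKM in SOX4-shRNA cells with TGF-β and 54.8 and 136 FPKM untreated, against 84.2 and 77.4 FPKM in scrambled-shRNA cells with TGF-β and 66.7 and 99.4 FPKM untreated. The second untreated SOX4-shRNA library stood above all the others. Within a treatment or a kind of cell, groups overlapped except between the shRNAs with TGF-β, where SOX4-shRNA cells were lower by a log2 fold change of -0.63 ± 0.38 (SE). The log2 fold change with TGF-β was -0.72 ± 0.38 in SOX4-shRNA cells and -0.01 ± 0.38 in scrambled-shRNA cells. Without the first untreated SOX4-shRNA library the first of these was -1.37, and without the second -0.07. The fold change with the SOX4 shRNA in untreated cells, 0.08 ± 0.38, was 0.73 and -0.56 without the same libraries.

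NEAT1 had 28.9 and 39.3 FPKM in SOX4-shRNA cells with TGF-β and 31.6 and 58.0 FPKM untreated, against 21.9 and 20.3 FPKM in scrambled-shRNA cells with TGF-β and 31.9 and 23.2 FPKM untreated. The same untreated SOX4-shRNA library was the highest. With TGF-β present the SOX4-shRNA libraries lay above the scrambled ones, by a log2 fold change of 0.66 ± 0.28 (SE), and in untreated cells the fold change was 0.64 ± 0.28 with overlapping libraries, or 1.06 without the first and 0.21 without the second SOX4-shRNA library. With TGF-β it was -0.34 ± 0.28 in SOX4-shRNA cells, or -0.76 without the first and 0.09 without the second untreated library, and -0.36 ± 0.28 in scrambled-shRNA cells, whose treated libraries lay below the untreated ones. In scrambled-shRNA cells it was -0.14 without the first untreated scrambled library and -0.58 without the second. The value is that of the short NEAT1 transcript that the table lists, of 3735 bases as fitted, in a gene that spans 22767 bases. Reads of other NEAT1 transcripts that share its bases cannot be told apart from its own. MALAT1 exceeded NEAT1 in every library, by a ratio of FPKM of 1.61 and 1.47 in SOX4-shRNA cells with TGF-β and 1.73 and 2.34 untreated, against 3.85 and 3.82 in scrambled-shRNA cells with TGF-β and 2.09 and 4.28 untreated. The ratio was lower in SOX4-shRNA than in scrambled-shRNA cells with TGF-β, and overlapped without it.

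The spread between libraries set these RNAs apart from one another. The residual SD on the log2 scale was 0.51 for MALAT1, larger than in 99.1% of the 346 fitted genes within 0.5 log2 units of its level, and 0.37 for NEAT1, larger than in 96.8% of 773 such genes. It was 0.25 for HOXC-AS1, on very few reads, 0.22 for VPS9D1-AS1, 0.16 for MANCR, 0.08 for UCA1, 0.06 for CARD8-AS1 and 0.03 for CADM3-AS1. Adding 1 FPKM shrinks this SD for low RNAs, so the order holds for this scale only. The FPKM ratio of the untreated SOX4-shRNA libraries was 3.58 for HOXC-AS1, against 2.48 for MALAT1 and 1.83 for NEAT1. On the log2(FPKM + 1) scale MALAT1 differed by 1.30 and NEAT1 by 0.85 between these libraries. The median size of that log2 ratio over all fitted genes was 0.22. By absolute size on that scale 3 genes exceeded MALAT1, namely NPB (-1.39), CLIC3 (-1.35) and LINC02444 (1.31), named after their values were seen. Another count, 68, exceeded NEAT1. The part that RNA quality or handling had in this was not tested.

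**Figure D2:**
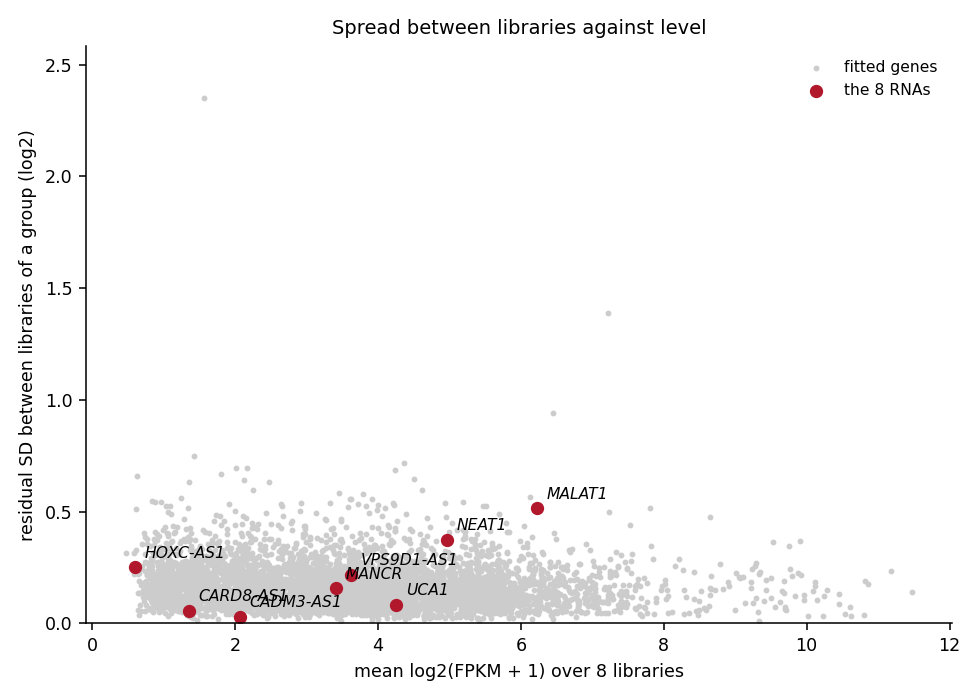
Residual SD between libraries of a group (vertical axis, log2 scale, 4 residual degrees of freedom) against mean log2(FPKM + 1) over the 8 libraries (horizontal axis) for the 5322 fitted genes (grey) and the 8 RNAs (red). MALAT1 (0.51) and NEAT1 (0.37) lie near the upper edge at their level, and CADM3-AS1 (0.03) and CARD8-AS1 (0.06) near the lower edge.

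**Figure D3:**
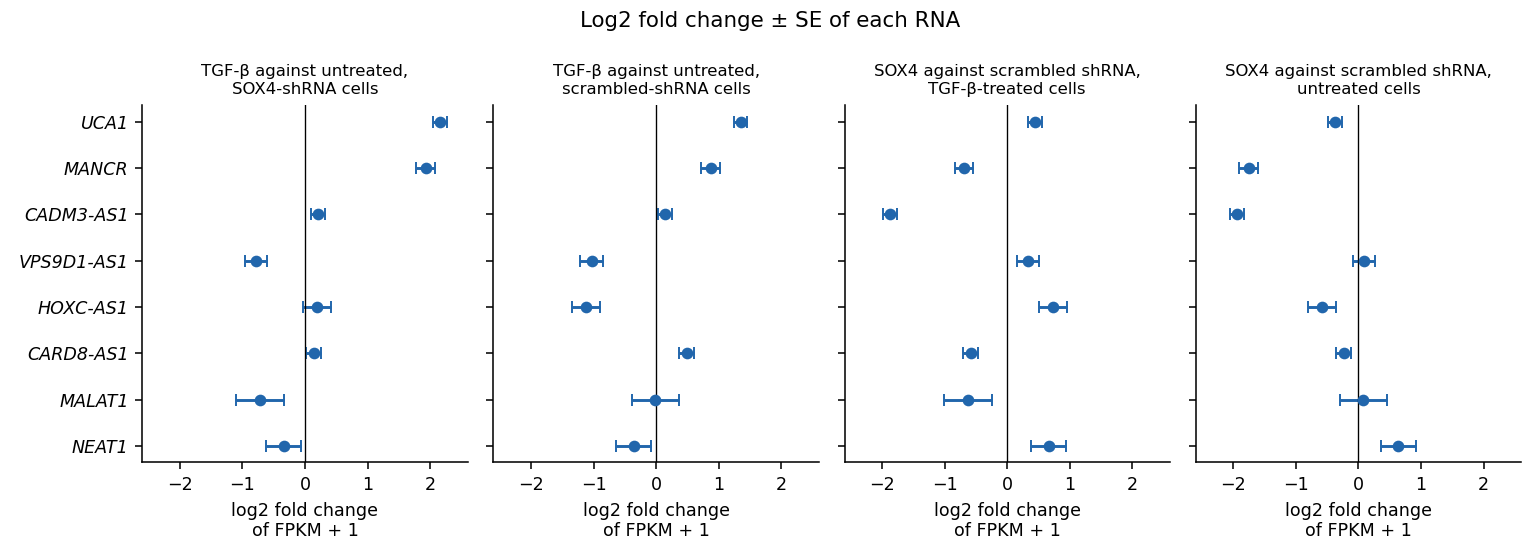
Log2 fold change of FPKM + 1 (points, horizontal axes) with limma's moderated SE (bars) for each RNA in 4 comparisons. All come from 1 fit of all groups with n = 2 each. UCA1 and MANCR lie highest with TGF-β in SOX4-shRNA cells (2.16 and 1.93), and CADM3-AS1 lies near -1.9 with the SOX4 shRNA in both treatments.

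Counted over the list, UCA1 and MANCR were called higher and VPS9D1-AS1 lower with TGF-β in SOX4-shRNA cells, where 5.94% of the fitted genes were called higher and 2.22% lower. In scrambled-shRNA cells UCA1 and MANCR were called higher and VPS9D1-AS1 and HOXC-AS1 lower, where 4.92% of the fitted genes were called higher and 2.27% lower. In TGF-β-treated cells 3 of the 8, MANCR, CADM3-AS1 and CARD8-AS1, were called lower with the SOX4 shRNA and 0 higher, where 2.89% of the fitted genes were called lower and 1.11% higher. In untreated cells MANCR and CADM3-AS1 were called lower and 0 higher, where 3.44% of the fitted genes were called lower and 1.05% higher. Since the RNAs were chosen on these contrasts, and HOXC-AS1 entered the fit only through the group that it is set against, nothing is read from those counts. The median log2 fold change of the 8 with TGF-β was 0.17 in SOX4-shRNA and 0.07 in scrambled-shRNA cells, beside -0.04 and -0.03 over all fitted genes. With the shRNA it was -0.12 in TGF-β-treated and -0.30 in untreated cells, beside 0.01 and -0.01. Groups did not overlap for 5 and 7 of the 8 with TGF-β (44.3% and 63.0% of all fitted genes) and for 8 and 5 with the shRNA in treated and untreated cells (46.5% and 46.6%). In the interaction, which asks whether the TGF-β response differs between the kinds of cell, 0 of 5322 genes were called with limma, 164 had an unadjusted p under 0.05, and voom on the whole reads called 4. MALAT1 and NEAT1 were called in none of the 5 contrasts. Calls were gained by MALAT1 with TGF-β in SOX4-shRNA cells without the first untreated SOX4-shRNA library. UCA1 gained them with the shRNA in both treatments under a replicate block with crossed numbers, added after seeing the data. That block called 619 of the 5322 genes in treated and 812 in untreated cells, against 213 and 239 in the main fit. CARD8-AS1 gained a call with TGF-β in scrambled-shRNA cells under that block (1287 genes called) or with only the compared groups fitted (946), against 383. HOXC-AS1 gained a call with the shRNA in TGF-β-treated cells at a pseudocount of 0.1 (182 genes called). Nothing is read from these gains.

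Some calls depended on single libraries or settings, and leaving out a library of a compared group lowered the calls over all genes as well. Every member call kept its direction under these alternatives, which do not include other readings of the lost mark. The calls of UCA1 with TGF-β in both kinds of cell and of CADM3-AS1 with the shRNA in both treatments were kept under all 17. So were those of MANCR with TGF-β in SOX4-shRNA cells and with the shRNA in untreated cells. The MANCR call with the shRNA in TGF-β-treated cells was kept under 4 of 17 alternatives and that of CARD8-AS1 under 2 of 16. Those of VPS9D1-AS1 with TGF-β were kept under 6 of 17 in SOX4-shRNA and 11 of 17 in scrambled-shRNA cells, that of MANCR in scrambled-shRNA cells under 13 of 17 and that of HOXC-AS1 under 10 of 16. The alternatives include the crossed block, which called 619 to 1287 of all genes in these contrasts. Since the RNAs were chosen on the same contrasts, nothing is read from the calls that were kept. The shares called of all fitted genes are those given above.

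The 3 fitted genes closest in pattern to UCA1, MANCR and CADM3-AS1 were sought by Pearson's r of log2(FPKM + 1) over the 8 libraries, among 371 genes whose group means span at least 1 log2 unit. With 4 groups of 2 the points fall in clusters, and the genes were picked for their r, so it is a description. UCA1 was followed by COL4A1 (0.991), a chain of basement membrane collagen, by the gelatinase gene MMP9 (0.991) and by the metalloprotease gene ADAMTS15 (0.988). MMP9 averaged 32.4 FPKM in SOX4-shRNA cells with TGF-β and 2.83 FPKM untreated, against 21.2 and 4.33 FPKM in scrambled-shRNA cells with TGF-β and untreated, the same order of groups as for UCA1. COL4A1 averaged 147 and 50.5 FPKM in SOX4-shRNA cells with TGF-β and untreated, against 131 and 65.7 FPKM in scrambled-shRNA cells.

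MANCR was followed by another long noncoding RNA, LINC00941 (0.984), by the hemidesmosomal collagen gene COL17A1 (0.979) and by ADAMTS6 (0.978). LINC00941 averaged 6.6 and 2.74 FPKM in SOX4-shRNA cells with TGF-β and untreated, against 9.40 and 5.65 FPKM in scrambled-shRNA cells. CADM3-AS1 was followed by the T-box gene TBX18 (0.993), the mannosidase gene MAN1A1 (0.989) and CPE (0.988), which encodes carboxypeptidase E. All 3 were lower with the SOX4 shRNA: MAN1A1 averaged 5.18 and 4.67 FPKM in SOX4-shRNA cells with TGF-β and untreated, against 10.8 and 9.43 FPKM in scrambled-shRNA cells. TBX18 averaged 0.192 and 0.194 FPKM, against 1.39 and 1.27 FPKM, and passed the filter only through the scrambled-shRNA libraries.

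**Figure D4:**
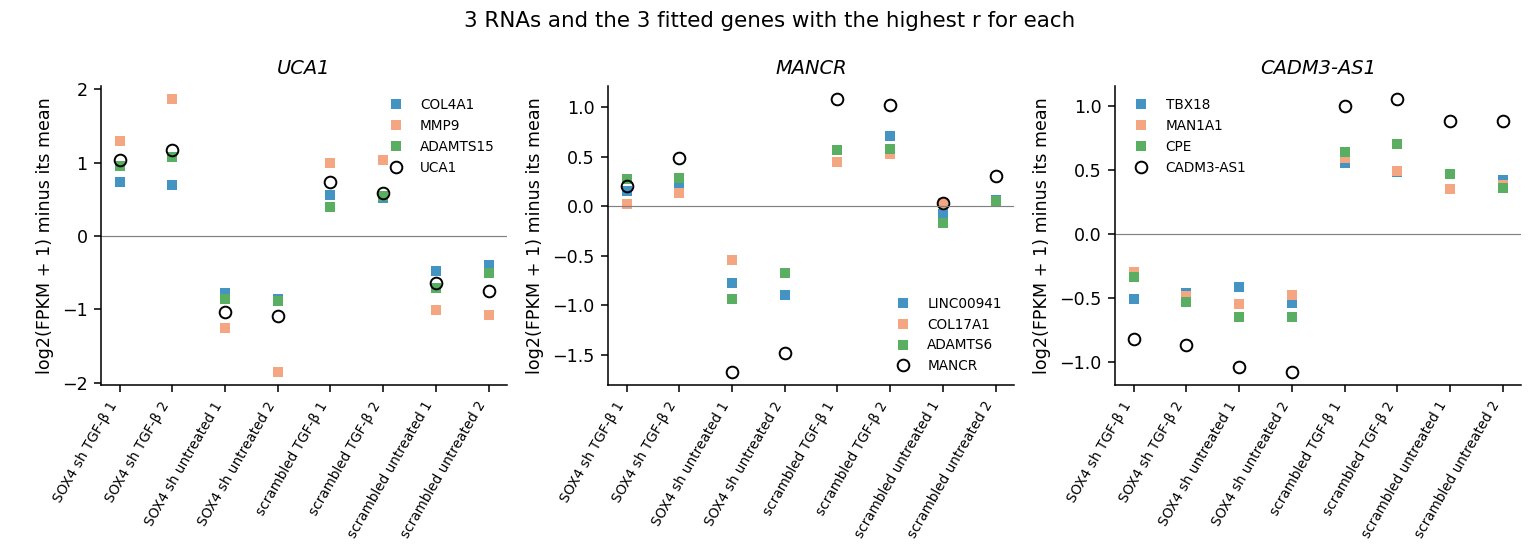
Log2(FPKM + 1) minus its mean over the 8 libraries (vertical axes) in each library (horizontal axes) for UCA1, MANCR and CADM3-AS1 (open circles) and the 3 genes with the highest r for each (squares). The UCA1 set is high in the 4 TGF-β-treated libraries, the MANCR set is lowest in untreated SOX4-shRNA cells, and the CADM3-AS1 set is low in the 4 SOX4-shRNA libraries.

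Few protein-coding neighbours of the 8 RNAs could be tested. Within 100 kb of a member GENCODE lists 48, of which 12 had settled readings at a sufficient level and were tested, among them HOXC8, HOXC9 and HOXC13 beside HOXC-AS1, EMP3 beside CARD8-AS1 and DPF2 beside NEAT1. With limma, 0 of the 12 were called in any contrast, and at the shares called of all fitted genes (1.05% to 5.94% in a direction) 12 genes would give few or no calls, so nothing is read from this count. At an unadjusted p under 0.05 there were 3 and 1 with TGF-β in SOX4-shRNA and scrambled-shRNA cells, 2 and 1 with the shRNA in TGF-β-treated and untreated cells and 1 in the interaction, and voom called 0. Their log2 fold changes with TGF-β ran from -0.24 to 0.48 in SOX4-shRNA and from -0.52 to 0.23 in scrambled-shRNA cells, and with the shRNA from -0.21 to 0.56 in TGF-β-treated and from -0.50 to 0.17 in untreated cells. No neighbour of UCA1 or CADM3-AS1 could be tested, and MANCR has no listed protein-coding gene within 100 kb.

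Other long noncoding RNAs were set beside the 8. Of a list of 50 known ones 47 were in the table and 21 were tested. With TGF-β 3 rose in SOX4-shRNA cells (14.3%), and in scrambled-shRNA cells 1 rose and 3 fell (19%). Over all fitted genes 5.94% were called higher and 2.22% lower in SOX4-shRNA cells, and 4.92% and 2.27% in scrambled-shRNA cells. The list was chosen with earlier results of these data known, so nothing is read from its shares. LINC00941 rose in both, by 1.02 ± 0.12 (SE; limma adjusted p = 0.0025) in SOX4-shRNA and by 0.64 ± 0.12 (limma adjusted p = 0.020) in scrambled-shRNA cells. MIR31HG, the host transcript of miR-31, rose in SOX4-shRNA cells to 12.1 ± 0.776 FPKM with TGF-β, against 6.44 ± 0.674 FPKM untreated (SD, n = 2 each; limma adjusted p = 0.0055), as did LINC01133 (0.98 ± 0.18, limma adjusted p = 0.015). The falls in scrambled-shRNA cells were those of SNHG12 (-0.63 ± 0.13), SNHG1 (-0.59 ± 0.12) and EPB41L4A-AS1 (-0.55 ± 0.13). SNHG1 and SNHG12 are host transcripts of small nucleolar RNAs.

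With the SOX4 shRNA in untreated cells LINC00941 (-0.83 ± 0.12, limma adjusted p = 0.0090) and MIR31HG (-0.66 ± 0.12, limma adjusted p = 0.020) fell, and HOXC13-AS, from the HOXC cluster, rose (0.56 ± 0.11, limma adjusted p = 0.035). HOXC13-AS also rose in TGF-β-treated cells (0.71 ± 0.11, limma adjusted p = 0.016). It had 8.35 ± 0.645 FPKM in SOX4-shRNA cells there, against 4.72 ± 0.105 FPKM in scrambled-shRNA cells (SD, n = 2 each). It was the only 1 of the 21 called there (4.76%), while in untreated cells 1 rose and 2 fell (14.3%). Of all fitted genes 1.11% were called higher and 2.89% lower in TGF-β-treated cells, and 1.05% and 3.44% in untreated cells. The median log2 fold change of the 21 with TGF-β was -0.14 in SOX4-shRNA and -0.05 in scrambled-shRNA cells. With the shRNA it was 0.13 in TGF-β-treated and 0.06 in untreated cells.

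Of the remaining 243 fitted genes with noncoding transcripts only, 13 rose and 6 fell with TGF-β in SOX4-shRNA cells (7.82%), and 12 rose and 3 fell in scrambled-shRNA cells (6.17%). Over all fitted genes 5.94% were called higher and 2.22% lower in the former, and 4.92% and 2.27% in the latter. The largest rises in SOX4-shRNA cells were those of MIR181A2HG (1.80 ± 0.29), LINC01116 (1.52 ± 0.15) and LINC02551 (1.38 ± 0.15). LINC01116 reached 47.0 ± 2.54 FPKM with TGF-β, against 15.8 ± 1.47 FPKM untreated (SD, n = 2 each; limma adjusted p = 0.00091). MIR181A2HG was at 0 in 1 untreated SOX4-shRNA library and TGFB2-AS1 in 1 treated SOX4-shRNA library, so their fold changes depend on the pseudocount. TGFB2-AS1, antisense to the TGF-β2 gene, fell (-0.97 ± 0.20), as did LINC00052 (-0.89 ± 0.20) and RAB30-DT (-0.67 ± 0.17). In scrambled-shRNA cells LINC01127 (1.20 ± 0.16), FAM83A-AS1 (1.09 ± 0.23) and LINC02551 (1.05 ± 0.15) rose most, and PXN-AS1 (-0.95 ± 0.22), TMEM147-AS1 (-0.84 ± 0.17) and MIF4GD-DT (-0.71 ± 0.12) fell most. LINC01127 reached 1 FPKM only in treated libraries and TGFB2-AS1 only in untreated ones, the sides where they are higher. Both passed the filter only through those libraries, so nothing is read from their calls.

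With the SOX4 shRNA 1 of the 243 rose and 3 fell in TGF-β-treated cells (1.65%), and 2 rose and 8 fell in untreated cells (4.12%). Of all fitted genes 1.11% were called higher and 2.89% lower in TGF-β-treated cells, and 1.05% and 3.44% in untreated cells. LINC01940 was lower in both, by -1.40 ± 0.20 with TGF-β and -1.03 ± 0.20 untreated. With TGF-β it had 0.288 ± 0.161 FPKM in SOX4-shRNA cells, against 2.39 ± 0.405 FPKM in scrambled-shRNA cells (SD, n = 2 each). It reached 1 FPKM only in scrambled-shRNA libraries. It thus entered the fit only through the cells that it is set against, and nothing is read from its calls. DLGAP1-AS2 (0.80 ± 0.14) rose and FAM83A-AS1 (-1.07 ± 0.23) and SLC44A3-AS1 (-0.65 ± 0.12) fell in TGF-β-treated cells. In untreated cells LINC01515 (0.83 ± 0.17) and RBMS3-AS3 (0.80 ± 0.18) rose, and LINC01117 (-1.46 ± 0.32) and FOXC2-AS1 (-1.30 ± 0.24) fell. LINC01515 reached 1 FPKM only in SOX4-shRNA libraries, the side where it is higher, so nothing is read from its call. Of the 32 calls named for RNAs outside the 8, 27 were lost in at least 1 fit that left out a library, and 3 were kept under every alternative, those of LINC00941, LINC01116 and LINC02551 with TGF-β in SOX4-shRNA cells.

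**Figure D5:**
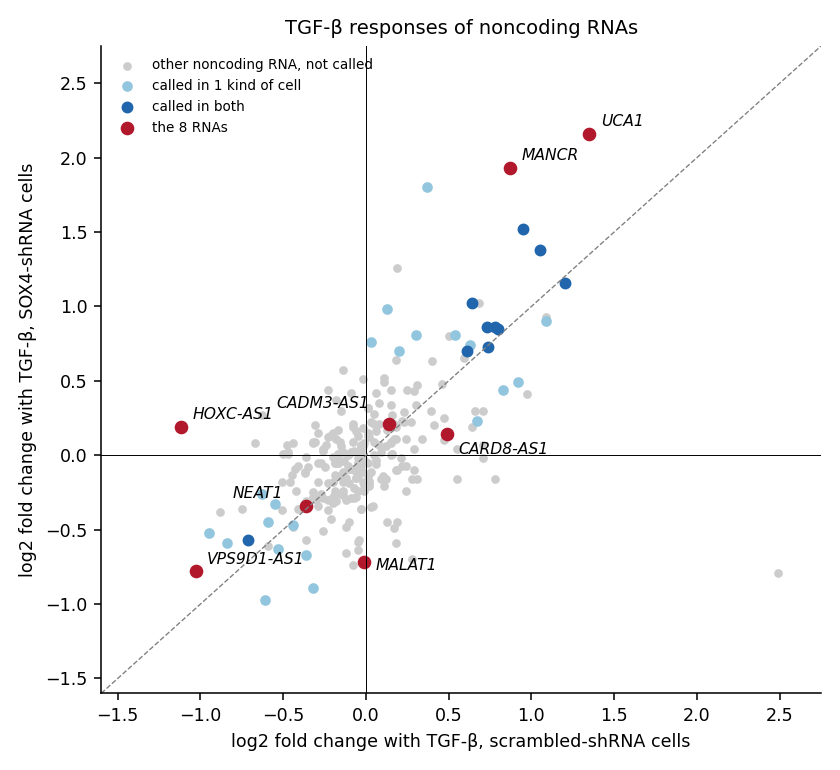
Log2 fold change with TGF-β in SOX4-shRNA cells (vertical axis) against that in scrambled-shRNA cells (horizontal axis) for the 8 RNAs (red) and the other fitted noncoding genes, coloured by whether limma called them in neither, 1 or both kinds of cell; the dashed line marks equal values. UCA1 (2.16 and 1.35) and MANCR (1.93 and 0.87) lie above the line, and HOXC-AS1 (0.19 and -1.12) far to its left. The grey point at the far right is LINC01023 (-0.79 and 2.49), whose libraries differed by a residual SD of 2.35.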

How the data were processed

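RNA-seq libraries of HMLE cells were mapped to groups by their titles. The hg19 build, Cuffdiff, Cufflinks 2.2.1 and TopHat2 2.0.9 are named in the submitters' processing notes, with no order. The authors deposited 1 table of 48175 RefSeq transcripts in 8 columns, taken as FPKM from the tools and the values. How reads were counted by strand, and how libraries were scaled, is not given in the sources used here.

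In 34.1% of cells the decimal mark was lost before deposit, leaving readings that differ by factors of 10. A further 13.9% are in damaged exponent notation. Genes with a damaged cell were left out of the main fit. Such cells were taken as 0 only in genes with unsettled readings, which enter the fit of all kept genes alone. For genes with 1 transcript FPKM is whole reads times a library factor over an effective length. Of 5641 genes searched 5372 (95.2%) gave whole reads within 0.003 reads, against 17 with random digits. Readings were weighed by replicate spread and effect size (multivariate t, 1 degree of freedom), and genes were kept at a posterior of at least 0.95. A change near 10-fold in 1 group can be misread.

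log2(FPKM + 1) was fitted with limma 3.58.1 in R 4.3.3 (intensity trend, 1 fit of 4 groups, 4 residual degrees of freedom, Benjamini-Hochberg over 5322 genes), after tests on simulated data. The fit is restricted to whole-read genes. The members and lists were chosen with earlier results of these data known. Named genes were the 8 RNAs, SOX4, overlapping or called neighbours within 100 kb, up to 4 called list members per contrast by p, up to 3 called noncoding genes per direction with the largest change and non-overlapping libraries, and the 3 genes of highest r. Alternatives were a pseudocount of 0.1, other filters, median scaling, a replicate block, all kept genes, voom, the compared groups alone, other readings and leaving out each library. Loci are from GENCODE 44 lifted to GRCh37 and promoters from RefSeq, GRCh38.p14.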

Additional observations from a re-analysis of the deposited data

Results flagged for a closer look

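For these RNAs both libraries of 1 group moved one way and both of the other group the opposite way under the same contrast. With the SOX4 shRNA, UCA1 had log2 fold changes of 0.44 in TGF-β-treated and -0.37 in untreated cells, and HOXC-AS1 had 0.73 and -0.58, on 0 to 7 reads per library. Their differences, 0.81 ± 0.16 and 1.32 ± 0.31 (SE), are given with no test. At the UCA1 reading with a probability of 0.011 its treated value was -1.08 and its difference -0.71. For HOXC-AS1, at 0 in treated scrambled-shRNA cells, the pseudocount sets its values. At 0.1 FPKM they were 2.88 and -1.32 with a difference of 4.20, and without 1 library the untreated value ran from -0.85 to -0.32. Among genes named beside them the same held for ADAMTS15 (0.55 and -0.27), COL4A1 (0.17 and -0.38), MMP9 (0.56 and -0.51), LINC01133 (0.43 and -0.41) and MIR181A2HG (0.32 and -1.11). ADAMTS15, COL4A1 and MMP9 had been picked for their r with UCA1, so nothing is read from their sharing its signs. With TGF-β, FOXC2-AS1 had 0.27 in SOX4-shRNA and -0.63 in scrambled-shRNA cells, and LINC01515 had -0.45 and 0.19. None of these 7 was called in the limma interaction test (adjusted p = 0.80 for ADAMTS15, 0.92 for COL4A1 and 0.99 for the other 5).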

How the results depend on the processing

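Replicate numbers are shared by the 4 groups, but same-numbered libraries deviated together for the 2 shRNAs (correlations of 0.348 with TGF-β and 0.505 untreated) and not for treated against untreated cells (-0.642 in SOX4-shRNA and -0.167 in scrambled-shRNA cells), so the numbers are not taken as pairs. Called genes with TGF-β in SOX4-shRNA cells, with TGF-β in scrambled-shRNA cells, with the shRNA in untreated cells and with the shRNA in TGF-β-treated cells numbered 434, 383, 239 and 213. With a replicate block they were 245, 174, 138 and 101, and 0 in the interaction. With the crossed block, added after seeing the data, they were 1211, 1287, 812 and 619, and 3 in the interaction. With the compared groups alone the first 3 were 132, 946 and 99. With no filter the last 3 were 250, 153 and 130, with all kept genes the second was 232, and with a filter of 5 FPKM the last was 127. The interaction, with 0 calls, had 2 with a pseudocount of 0.1, a 5 FPKM filter, median scaling or all kept genes, and 4 with voom. Leaving out 1 library gave 186 to 294, 32 to 427, 54 to 253, 32 to 208 and, in the interaction, 0 to 1. The lowest of these came without treated SOX4-shRNA replicate 2 (186), treated scrambled replicate 1 (32), untreated scrambled replicate 1 (54) and treated scrambled replicate 2 (32), and leaving out any scrambled library gave at most 84, 123 and 135 in the last 3 contrasts. The lone library left in a group is then assumed to vary like the others. Other readings of the lost mark reverse UCA1 (-1.01, at a probability of 0.00214) and MANCR (-0.97, 0.0137) with TGF-β in SOX4-shRNA cells. They also reverse MANCR (1.16, 0.0137) with the shRNA in untreated cells and CADM3-AS1 (0.74, 0.0026) in TGF-β-treated cells. UCA1 with the shRNA turns to -1.08 (0.011) in treated and 2.80 (0.00214) in untreated cells. NEAT1 turns to 1.22 with TGF-β in SOX4-shRNA cells and -0.92 with the shRNA in untreated cells (both 0.00521). The difference in TGF-β response turns negative for UCA1 (-0.71 at 0.011, -2.36 at 0.00214) and MANCR (-1.85 at 0.0137, -0.38 at 0.00391). Voom moved the median of all genes with TGF-β to -0.12 in both kinds of cell. Few reads limit HOXC-AS1 and CARD8-AS1.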
